A study of Rattus norvegicus with 20 samples.

Results

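The salt by Ccl2 genotype interaction was examined in small vessels dissected from the kidneys of male Dahl salt-sensitive (SS) rats. For each gene it is the salt effect in SS Ccl2-/- rats minus the salt effect in SS rats, each being the difference of mean log2(normalized count + 1) between 4.0% and 0.3% NaCl. All 16153 genes with at least 10 normalized counts in at least 5 of the 20 libraries were taken, of 16672 genes in the table. Both genotypes had eaten chow with 0.3% or 4.0% NaCl for 2 weeks, and each of the 4 groups held 5 rats, 1 library each, so all Ccl2-/- rats also carried the SS background. The labels do not describe the mutation of Ccl2, and the dissected vessels were sequenced as bulk tissue, with poly A selected RNA. Myogenic tone, the constriction of small vessels when their pressure rises, and the role of Ccl2 in it are what the series' title names as its question.

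SS rats on a high-salt diet develop hypertension and kidney injury, with leukocytes entering the kidney and tubules being damaged. Ccl2 is a chemokine that draws monocytes from the blood through its receptor Ccr2. A negative interaction means that salt raised a transcript less, or lowered it more, in Ccl2-/- rats than in SS rats, and a positive one means the reverse.

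Libraries held 22.0 to 47.9 M recovered reads, and mitochondrially encoded transcripts took 6.90 to 42.5% of the signal. In a principal component analysis the libraries farthest from their groups were rat 4 of the Ccl2-/- low-salt group and rat 1 of the SS high-salt group. Markers of smooth muscle and endothelium were read in all libraries, and so were those of proximal tubule, loop of Henle and fibroblasts. Because bulk tissue was sequenced, fewer cells of a type and less RNA per cell cannot be told apart.

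Salt acted differently in the 2 genotypes on 409 genes, 2.53% of those tested (limma, Benjamini-Hochberg adjusted p under 0.05). Of these, 284 (1.76%) had a lower and 125 (0.774%) a higher salt effect in Ccl2-/- rats. The typical gene of the lower set rose with salt in SS rats, with a median salt effect of 0.85 (log2), and stood at -0.25 in Ccl2-/- rats. The typical gene of the higher set had medians of -0.53 in SS and 0.27 in Ccl2-/- rats. Genes of the lower set were the rarer, with a median of 287 normalized counts against 1686 in the higher set and 528 in all genes tested. At least 2-fold differences in the salt effect were seen in 161 of the lower and 43 of the higher set.

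For most of the lower set, a rise with salt passed the test in SS rats alone. In 215 of the 284 genes salt passed as a rise in SS and missed the threshold in Ccl2-/- rats, in 15 as a rise in SS and a fall in Ccl2-/-, and in 27 as a fall in Ccl2-/- only. The 15 genes in which both salt effects passed, in opposite directions, were Havcr1, C4b, C4a, Car3, Lcn2, Cd44, Col15a1, Col24a1, Pdlim4, B4galnt4, Fcrl2, Card14, Etv4, Adra1d and Parp10. In 5 genes salt passed as a rise in both genotypes, in 1 (Calb1, a calcium-binding protein of the distal tubule) as a fall in both, and in 21 in neither. Of the 125 genes of the higher set, 85 passed as a fall with salt in SS only and 27 as a rise in Ccl2-/- only. In 2 (Slc9a3 and Nat8) salt passed as a fall in SS and a rise in Ccl2-/-, in 2 (Atp1a4 and Cldn16) as a fall in both, and in 9 in neither. Across all genes tested, salt passed for 2787 (17.3%, 9.52% as a rise and 7.73% as a fall) in SS and for 891 (5.52%, 3.06% and 2.45%) in Ccl2-/- rats. By sign alone, whether passed or not, the salt effects of the genotypes were opposite in 234 of the 284 genes and 105 of the 125. This was so in 6267 of all 16153 genes tested.

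**Figure D1:**
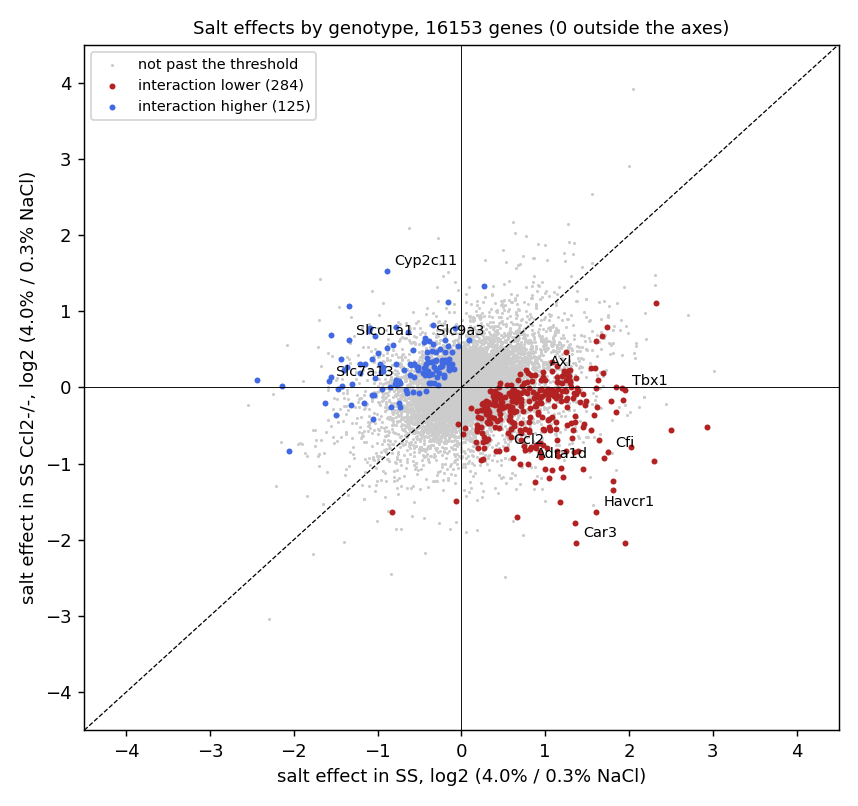
Salt effect in SS Ccl2-/- rats (vertical axis, log2 of 4.0% over 0.3% NaCl) against the salt effect in SS rats (horizontal axis, same unit), 1 point for each of 16153 genes. The 284 genes of the lower set (red) lie below the dashed line of equal effects, most of them near 0 on the vertical axis and to the right of 0 on the horizontal one, and the 125 genes of the higher set (blue) lie above it.

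By calls past the threshold, the genotypes differed in these genes mainly on high salt. Among the 284 genes, 198 were lower in Ccl2-/- than SS rats on high salt only, 23 were higher on low salt only, 2 (Sptbn4 and Tbx1) passed both ways, and 61 passed on neither diet. Among the 125 genes, 100 were higher in Ccl2-/- rats on high salt only, 2 (Cldn10 and Cystm1) were lower on low salt only, and 23 passed on neither. By means, passed or not, the genotypes lay the other way on low salt in most of them. There 256 of the 284 genes were above SS in Ccl2-/- rats and 121 of the 125 below. Over all 16153 genes tested, 8012 were above and 8141 below. The median differences were 0.34 and -0.27 on low salt and -0.66 and 0.52 on high salt (log2). The larger difference was on high salt in 208 of the 284 and 111 of the 125, against 9095 of all 16153 genes tested. Over all genes tested, the genotypes differed in 8.52% on high salt (4.82% lower and 3.7% higher in Ccl2-/- rats) and in 0.557% on low salt (0.105% lower and 0.452% higher). The low-salt calls depend on single rats: the 90 calls over all genes became 4 without rat 3 and 398 without rat 4 of the SS low-salt group, and 1, 5 and 0 without rats 2, 4 and 5 of the Ccl2-/- low-salt group. The 4 comparisons share groups with the interaction, so these counts describe how it is made up and are no separate evidence. The ranges of 5 against 5 rats, given for single genes below, did not overlap between diets in 5.02% (higher on high salt) and 4.3% (lower) of all genes in SS rats, and in 5.6% and 5.18% in Ccl2-/- rats. Between genotypes they did not overlap in 2.1% (Ccl2-/- higher) and 1.59% (lower) on low salt and in 3.89% and 4.52% on high salt.

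Ccl2, the targeted gene, was read in every library of both genotypes. SS rats on low salt had 199, 138, 190.2, 196 and 212 normalized counts in rats 1 to 5, and SS rats on high salt 223, 426, 226, 167 and 384. Ccl2-/- rats had 218, 161, 169, 124 and 194 on low salt and 79.4, 99.5, 107, 128 and 77.5 on high salt. The genotypes overlapped on low salt and did not on high salt, where every Ccl2-/- rat was below every SS rat. The interaction was -1.34 ± 0.31 (limma adjusted p = 0.0237). It came with a fall in Ccl2-/- rats (-0.81 ± 0.22, adjusted p = 0.0338), while the salt effect in SS rats was 0.53 ± 0.22 and did not pass (adjusted p = 0.0966). A mutated gene can still be transcribed and the counts do not show which part of the transcript was read, so this level does not test the genotype labels.

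Ccr2, the receptor for Ccl2 on monocytes, stood at 115, 133, 128, 188 and 169.7 normalized counts in SS rats on low salt and 295, 520.3, 338, 281 and 309 on high salt. It stood at 142, 206, 146, 159 and 118 and 147, 168, 151, 219 and 179 in Ccl2-/- rats on the same diets. All SS rats on high salt were above all other rats, while the 2 Ccl2-/- groups overlapped. The interaction was -1.06 ± 0.25 (limma adjusted p = 0.0277), and it missed the threshold without rat 2 of the Ccl2-/- low-salt group or rat 1 of the Ccl2-/- high-salt group, with a highest adjusted p of 0.0565. Of the 8 tested genes of the Ccl2 axis list (its ligands, receptors and decoys) these 2 passed. They are 25% of the list, against 1.76% of all genes tested in the lower set. All 8 had a negative interaction, with a median of -1.12. The related chemokine Ccl7 (-1.18 ± 0.52) and the decoy receptor Ackr1 (-1.33 ± 0.63) did not pass.

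Several genes of injured tubules and of the acute phase response had a lower salt effect in Ccl2-/- than in SS rats. Of 14 tested injured tubule markers, 6 were in the lower set and 0 in the higher, and all 14 had a negative interaction, with a median of -0.58. Of 21 acute phase and STAT3 target genes, 6 were in the lower set and 20 were negative, with a median of -0.94. Over all genes tested, 1.76% were in the lower set and the median was 0.00. Salt passed as a rise in SS for 7 of the 14 injured tubule markers and as a fall in Ccl2-/- for 4. Over all genes tested these shares were 9.52 and 2.45%. As a share of the signal outside mitochondrially encoded genes, the 14 markers together took 0.358 to 0.457% in SS rats on low salt, 0.413 to 1.07% in SS rats on high salt, 0.336 to 0.418% in Ccl2-/- rats on low salt and 0.247 to 0.294% in those on high salt.

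Havcr1, the membrane protein KIM-1 that damaged proximal tubule cells make, had the smallest p. SS rats on low salt had 626, 964, 689, 489.5 and 707 normalized counts and those on high salt had 2975, 2771, 3068, 1304 and 1145. On low salt Ccl2-/- rats had 1010.1, 891, 294, 506 and 549, and on high salt 224, 191, 145, 245 and 168. On low salt the genotypes overlapped, all SS rats on high salt were above every other rat, and all Ccl2-/- rats on high salt were below every other rat. The salt effects were 1.61 ± 0.30 in SS and -1.63 ± 0.30 in Ccl2-/- rats, an interaction of -3.24 ± 0.42 (limma adjusted p = 0.000986).

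Timp1, a secreted inhibitor of matrix metalloproteinases, had 633, 549, 497, 497 and 503 normalized counts in SS rats on low salt and 1162, 1747, 1136, 849 and 830.2 on high salt. The counts of Ccl2-/- rats were 809.6, 587, 574, 564 and 616 on low salt and 461, 495, 452, 529 and 418 on high salt. SS rats on high salt were all above the other 3 groups, and rat 1 stood above the other 4 Ccl2-/- rats on low salt. The interaction was -1.46 ± 0.21 (limma adjusted p = 0.00206), with a salt effect of 1.05 ± 0.15 in SS rats and of -0.41 ± 0.15 in Ccl2-/- rats, which did not pass (adjusted p = 0.102).

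Socs3, a feedback inhibitor of STAT3 signalling, rose in SS rats from 438, 405, 356, 349 and 360.5 to 1796, 1330.1, 1358, 728 and 559.9 normalized counts. Its counts in Ccl2-/- rats were 553, 536, 365, 403 and 438 on low salt and 389, 488, 408, 356 and 313 on high salt. All SS rats on high salt were above all Ccl2-/- rats on that diet and all SS rats on low salt. The interaction was -1.70 ± 0.31 (limma adjusted p = 0.00811). In these lists Lcn2, an iron-binding protein released by stressed tubules, had -1.57 ± 0.32, and the copper carrier Cp had -0.86 ± 0.16. Clu, a secreted chaperone, had -1.21 ± 0.24, and the hyaluronan receptor Cd44 had -1.24 ± 0.27. All 4 passed (limma adjusted p = 0.0154, 0.00838, 0.0140 and 0.0178).

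Of 23 complement genes tested, 3 were in the lower set (6 without rat 1 of the SS high-salt group) and 0 in the higher. The 3 are 13.0% of the list, against 1.76% of all genes tested, and the median interaction of the list was -0.40. C4b had 815, 1241, 971, 866 and 827 normalized counts in SS rats on low salt and 4686, 3503, 2173, 1609.8 and 1509 on high salt. In Ccl2-/- rats it stood at 1097, 1107, 966, 1164 and 1363 on low salt and 616, 601, 704, 659.9 and 605 on high salt. As for Havcr1, salt separated the diets in opposite directions in the 2 genotypes. The interaction was -2.22 ± 0.30 (limma adjusted p = 0.00119), and it was -1.78 ± 0.34 for C4a. C4a and C4b are near-identical copies, so reads may be split between them. Cfi, a protease that inactivates C3b and C4b, had -2.60 ± 0.43 (adjusted p = 0.00440).

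Car3, a carbonic anhydrase abundant in muscle and fat, had the most negative interaction of the named genes. SS rats had 206, 235, 179, 81.2 and 118 normalized counts on low salt and 1052, 699, 337, 191 and 205 on high salt. Among Ccl2-/- rats the values were 228, 132, 114, 109 and 189 with low salt and 20.9, 45.6, 37.4, 50.1 and 30.4 with high salt. All Ccl2-/- rats on high salt were below every other rat, whereas the 2 SS groups overlapped. The interaction was -3.41 ± 0.55 (limma adjusted p = 0.00413). The other 7 tested adipocyte markers did not pass, and the median of that list was 0.32.

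**Figure D2:**
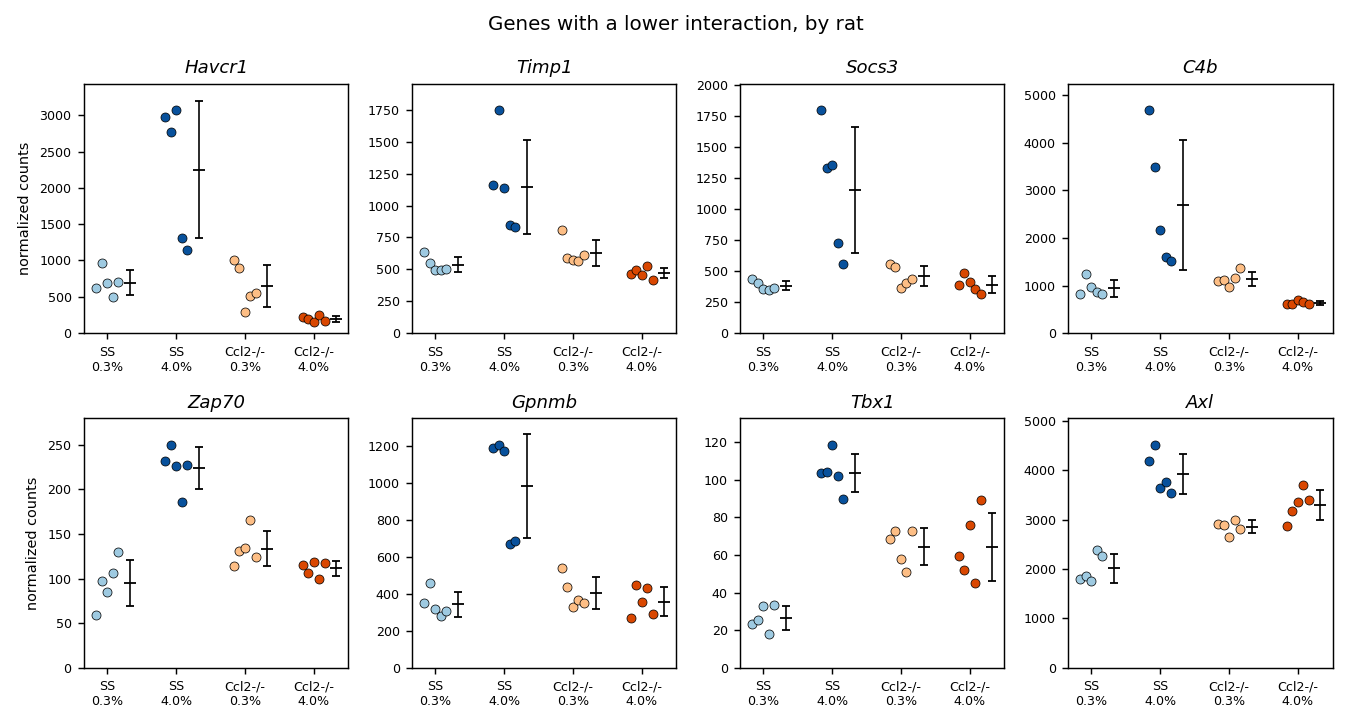
Normalized counts (vertical axes, from 0) of 8 genes of the lower set in each rat (points), by genotype and dietary NaCl, with the mean and SD of each group of 5 rats beside the points. In each panel the SS rats on 4.0% NaCl are the highest group by mean. Havcr1, C4b, Timp1, Socs3, Zap70, Gpnmb and Tbx1 separate them from all Ccl2-/- rats on that diet. For Tbx1 the gap is narrow, the lowest SS rat having 89.7 and the highest Ccl2-/- rat 89.0.

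SS rats on high salt varied among themselves in these genes. Rats 1, 2 and 3 had 2771 to 3068 normalized counts of Havcr1, and rats 4 and 5 had 1304 and 1145. Rats 4 and 5 were the 2 lowest of the 5 in 144 (50.7%) of the 284 genes of the lower set, against 12.1% of all genes tested. They were the 2 highest in 32 (25.6%) of the 125 genes of the higher set, against 10.4% of all genes tested. These shares describe the same rats that the test used. Without rat 4 of this group 612 genes passed, and without rat 2 the count was 238.

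**Figure D3:**
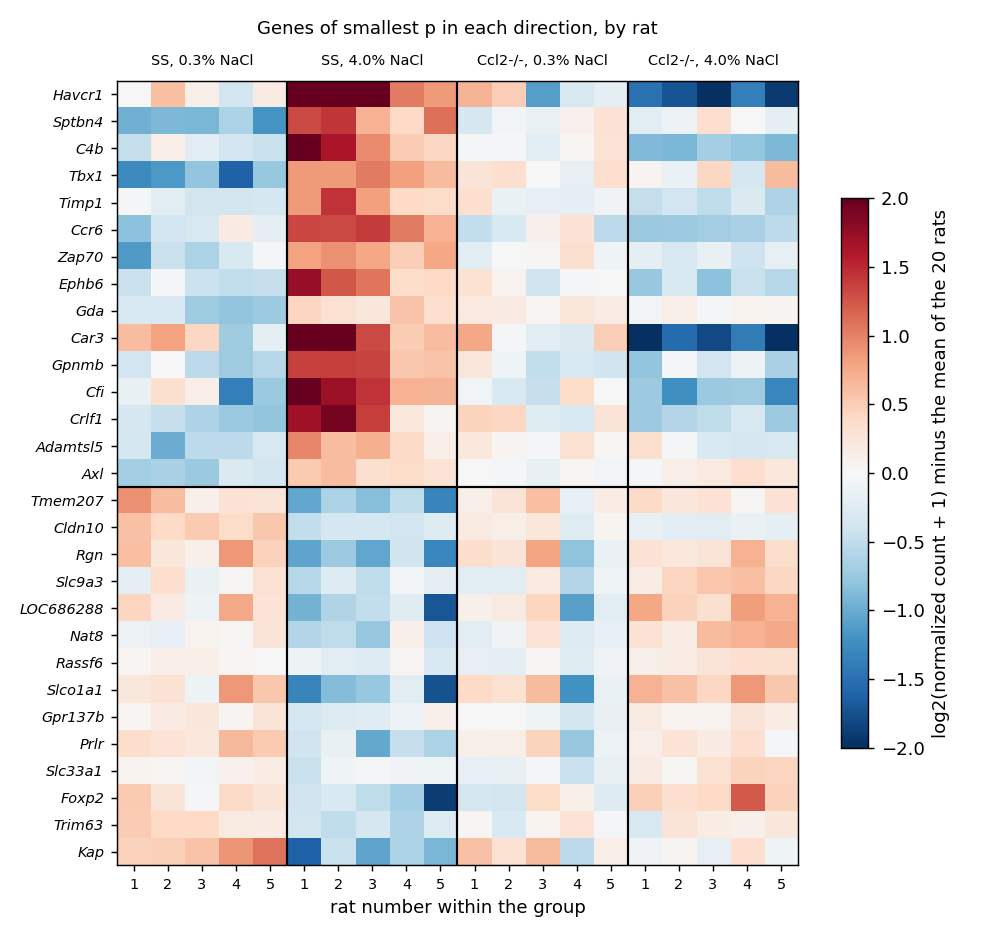
Level in each rat (columns, grouped by genotype and diet and numbered within the group) of the genes with the smallest p in each direction (rows; 15 lower above the line, 14 higher below it), as log2(normalized count + 1) minus the mean of the 20 rats, with colours ending at -2 and 2. The upper block is highest in SS rats on 4.0% NaCl, most of all in rats 1 to 3 of that group, and the lower block is lowest there.

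Several transcripts of leukocytes rose more with salt in SS than in Ccl2-/- rats. Of 24 tested T and NK cell markers 6 were in the lower set (Zap70, Lat, Cd3d, Cd3g, Cd8b and Icos), of 20 macrophage markers 4 (Gpnmb, Clec10a, Trem2 and Itgam), and of 8 B and plasma cell markers 1 (Fcrla). These are 25, 20 and 12.5% of the lists, against 1.76% of all genes tested. The median interactions were -0.71, -0.41 and -0.54. In the same order, the median differences of Ccl2-/- from SS rats were 0.42, 0.26 and -0.12 on low salt. On high salt they were -0.31, -0.13 and -0.58. For the T and NK cell and macrophage lists the low-salt difference was thus the larger, and low-salt calls over all genes depended on single rats, as given above. In the 20 fits that left out 1 rat, 2 to 6 T and NK cell, 3 to 5 macrophage and 0 to 1 B and plasma cell markers were lower. Salt passed as a rise in SS for 20 of the 24 T and NK cell markers, against 9.52% of all genes tested. As a share of the same signal, the summed T and NK cell markers took 0.00793 to 0.0129% in SS rats on low salt, 0.0156 to 0.0230% in SS rats on high salt, 0.0129 to 0.0149% in Ccl2-/- rats on low salt and 0.0141 to 0.0158% in those on high salt. None of the markers in the table was at 0 in every library, but each gene there had at least 100 reads in all, so none could be. The listed markers Cd4, Ctla4, Cd163, Marco, Ms4a1, Cr2 and Tnfrsf13c were not in the table.

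Zap70, the kinase that binds the activated T cell receptor, had 59.4, 96.8, 84.8, 107 and 129 normalized counts in SS rats on low salt and 232, 249.6, 226, 186 and 227 on high salt. Ccl2-/- rats had 114, 131, 134, 165 and 124 on low salt and 116, 106, 118, 99.0 and 117 on high salt. SS rats on high salt were all above the other 3 groups, which overlapped each other. The interaction was -1.51 ± 0.23 (limma adjusted p = 0.00227). Its partner Lat, the adaptor that Zap70 phosphorylates, had -1.20 ± 0.26 (adjusted p = 0.0196), while the T cell receptor subunit Cd3d (-1.52 ± 0.41, adjusted p = 0.0486) kept its call in 5 of the 20 fits that left out 1 rat.

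Gpnmb, a membrane glycoprotein of lipid-laden macrophages, had 352, 456, 318, 279.6 and 308 normalized counts in SS rats on low salt and 1184, 1203, 1169.9, 670.3 and 683 on high salt. On low salt Ccl2-/- rats had 537, 434, 327, 367 and 349, and on high salt 267, 447, 353, 430.2 and 292. The SS high-salt rats were above all the others. The interaction was -1.66 ± 0.27 (limma adjusted p = 0.00413). Clec10a, a lectin of tissue macrophages, had -1.30 ± 0.22 (adjusted p = 0.00572), and the mannose receptor Mrc1 had -1.06 ± 0.30 and did not pass (adjusted p = 0.0574). The summed macrophage markers took 0.0767 to 0.134% in SS rats on low salt, 0.135 to 0.191% in SS rats on high salt, 0.109 to 0.142% in Ccl2-/- rats on low salt and 0.124 to 0.158% in those on high salt. The part that the content of injured tubule, T cell or macrophage RNA has in the other calls was not tested.

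Of 44 chemokines and receptors, 6 were in the lower set (Ccl2, Ccr2, Ccr6, Ccr7, Ccl19 and Ccl21), with a list median of -0.51, and 3 were lower without rat 1 of the Ccl2-/- high-salt group. The 6 are 13.6% of the list, against 1.76% of all genes tested. Ccr6, the receptor for Ccl20 on T and B cells, had 30.3, 41.3, 43.5, 61.2 and 47.9 normalized counts in SS rats on low salt and 139, 137, 145, 113 and 88.4 on high salt. The counts of Ccl2-/- rats were 38.6, 43.9, 58.6, 66.7 and 37.3 on low salt and 32.0, 32.5, 33.2, 34.3 and 37.7 on high salt. The SS high-salt rats were above all the others, and the interaction was -1.95 ± 0.29 (limma adjusted p = 0.00208). Ccl21, a ligand of Ccr7 made by lymphatic endothelium, rose in both genotypes, by 1.73 ± 0.15 in SS and 0.80 ± 0.15 in Ccl2-/- rats, with an interaction of -0.94 ± 0.22 (adjusted p = 0.0235). Among 36 interleukins and receptors 3 (8.33%) were in the lower set (1 to 5 when 1 rat was left out), of which Il1rl1, the receptor for IL-33, had -1.83 ± 0.32 (adjusted p = 0.00570).

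Selp, the P-selectin that lets leukocytes roll on endothelium and platelets, had 55.8, 52.4, 39.1, 49.6 and 58.8 normalized counts in SS rats on low salt and 86.9, 93.9, 93.6, 62.4 and 119 on high salt. Ccl2-/- rats had 69.4, 44.8, 37.6, 38.1 and 35.9 on low salt, where rat 1 stood apart, and 28.7, 37.2, 30.5, 27.7 and 22.0 on high salt. SS rats on high salt were above those on low salt and above Ccl2-/- rats on high salt. The interaction was -1.39 ± 0.30 (limma adjusted p = 0.0171). Among 17 leukocyte adhesion genes, 4 (23.5%) were in the lower set (Selp, Sele, Itgam and Itgb7), against 1.76% of all genes tested. When 1 rat was left out this count was 1 to 4, and Selp kept its call in all 20 such fits, Sele in 4, Itgb7 in 11 and Itgam in 14. Of 17 blood endothelium markers 0 passed by limma, edgeR or DESeq2. At an unadjusted p under 0.05, 2 were higher and 0 lower, against 2906 of all 16153 genes tested in either direction. The median of these markers was 0.23 (-0.04 under scaling to the library total). Of these Cdh5, the junction protein VE-cadherin, had 0.51 ± 0.22 (adjusted p = 0.214). All 10 tested MHC class II genes had a negative interaction and 4 (40%) passed, RT1-Db1 among them at -0.70 ± 0.16 (adjusted p = 0.0230), though reads of RT1 genes are uncertain between copies. RT1-Db1 kept its call in all 20 fits without 1 rat, but Ciita did in 8, RT1-DMa in 7 and RT1-DOa in 6, and the count of 4 ranged from 1 to 6.

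Of 24 NF-kB subunits, feedback genes and targets, 7 (29.2%) were in the lower set and 0 in the higher, against 1.76 and 0.774% of all genes tested. They were Tnfaip3, Nfkbiz, Birc3, Relb, Bcl3, Ikbke and Ltb, and the list median was -0.43. The count was 3 without rat 1 of the Ccl2-/- high-salt group and 4 without rat 5 of that group, rat 2 of the SS high-salt group or rat 1 of the Ccl2-/- low-salt group. Tnfaip3, or A20, a ubiquitin-editing enzyme that restrains NF-kB, had -0.84 ± 0.17 (limma adjusted p = 0.0119). Nfkbiz, a nuclear partner of NF-kB induced by inflammatory signals, had -1.13 ± 0.26 (adjusted p = 0.0255) and missed the threshold without rat 5 of the Ccl2-/- low-salt group or rat 1 of the Ccl2-/- high-salt group (highest adjusted p = 0.0540). The kinase Ikbke had -0.84 ± 0.15 and the apoptosis inhibitor Birc3 had -1.15 ± 0.26 (adjusted p = 0.00806 and 0.0200).

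The promoters of Tnfaip3 and Nfkbiz are shown because both genes are known targets of NF-kB, and that of Havcr1 because it had the smallest p. Each runs from 250 bases before to 50 bases after the start of the gene, 5′ to 3′ on the gene's strand, as RefSeq gives it for the build GRCr8. They lie at chr1:15543930-15544229 (minus strand), chr11:58251471-58251770 (plus strand) and chr10:31629528-31629827 (plus strand). Capitals mark matches on either strand to GGGNNTTTC, a short form of the NF-kB site, and to TGANTCA, the AP-1 site.
Tnfaip3 promoter: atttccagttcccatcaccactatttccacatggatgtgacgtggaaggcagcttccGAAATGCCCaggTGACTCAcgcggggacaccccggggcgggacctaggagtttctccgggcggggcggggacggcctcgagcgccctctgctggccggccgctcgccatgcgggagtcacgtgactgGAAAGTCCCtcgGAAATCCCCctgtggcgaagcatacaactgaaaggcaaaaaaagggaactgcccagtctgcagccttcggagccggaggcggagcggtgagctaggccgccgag
Nfkbiz promoter: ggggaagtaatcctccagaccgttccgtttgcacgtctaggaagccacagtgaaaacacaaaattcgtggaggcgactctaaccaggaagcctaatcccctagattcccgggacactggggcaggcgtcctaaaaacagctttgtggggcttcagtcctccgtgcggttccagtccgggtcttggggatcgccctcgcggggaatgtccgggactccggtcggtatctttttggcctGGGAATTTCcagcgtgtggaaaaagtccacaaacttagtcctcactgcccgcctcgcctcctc
Havcr1 promoter: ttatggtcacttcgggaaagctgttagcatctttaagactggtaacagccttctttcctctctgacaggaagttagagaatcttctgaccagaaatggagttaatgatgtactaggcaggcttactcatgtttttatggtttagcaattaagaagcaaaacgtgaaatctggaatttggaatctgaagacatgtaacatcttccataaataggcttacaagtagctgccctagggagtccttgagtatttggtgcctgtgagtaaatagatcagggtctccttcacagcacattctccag
In Tnfaip3, GGGNNTTTC matched at 3 places, the first bases being at -193, -66 and -54 from the start, and TGANTCA at -181, with no overlap between them. In Nfkbiz GGGNNTTTC matched at -13, and in Havcr1 neither matched. A match is only a run of letters, and its absence holds for these windows alone.

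Promoters were found for 10866 of the 16153 genes tested, 194 of the 284 and 87 of the 125. GGGNNTTTC was in 4.44% of all promoters, 6.19% of the lower and 2.3% of the higher set, and TGANTCA in 5.1%, 6.19% and 4.6%. TTCNNNGAA, the STAT site, was in 6.79%, 11.9% and 9.2%, which is 23 promoters of the lower and 8 of the higher set. TATAAA, the TATA box, was in 7.36%, 10.3% and 19.5%, which is 20 and 17 promoters. These shares are descriptions, with both strands searched.

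On low salt 9 of 42 extracellular matrix genes (21.4%) and 3 of 10 fibroblast markers (30%) were higher in Ccl2-/- than SS rats, against 0.452% of all genes tested. Of the 9, Loxl1 and Col3a1 were also in the lower set. Both counts were 0 without rat 3 of the SS low-salt group or rat 2, 4 or 5 of the Ccl2-/- low-salt group. They were 3 to 4 and 0 to 1 without rat 1 or 2 of the SS low-salt or rat 1 of the Ccl2-/- low-salt group. Among the 23 and 2 genes of the lower set that were higher in Ccl2-/- than SS rats on low salt were Tbx1, Sptbn4, Gda, Axl, Emilin1, Clec3b, Loxl1, Col3a1, Pxdn and Ccl21. The Ccl2-/- low-salt libraries held more of the summed fibroblast markers as well, as these took 0.0438 to 0.0640% in SS rats on low salt, 0.0876 to 0.143% in SS rats on high salt, 0.0774 to 0.0979% in Ccl2-/- rats on low salt and 0.0905 to 0.128% in those on high salt. The part this has in the result was not tested.

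Tbx1, a T-box transcription factor, had 23.0, 25.4, 32.6, 17.9 and 33.6 normalized counts in SS rats on low salt and 104, 104, 118, 102 and 89.7 on high salt. In Ccl2-/- rats it stood at 68.4, 72.9, 57.8, 50.8 and 72.5 on low salt and 59.5, 52.1, 76.2, 44.9 and 89.0 on high salt. The SS low-salt rats were below all the others, and the 2 Ccl2-/- groups overlapped. The interaction was -1.99 ± 0.29 (limma adjusted p = 0.00198), with Ccl2-/- rats above SS rats by 1.27 ± 0.20 on low salt (adjusted p = 0.00992) and a difference of -0.72 ± 0.20 on high salt (adjusted p = 0.0312). The low-salt difference kept its call in 18 of the 20 fits without 1 rat (1.15 to 1.36).

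Axl, a receptor tyrosine kinase for Gas6, had 1799, 1864, 1747, 2382 and 2271 normalized counts in SS rats on low salt and 4192, 4507, 3639, 3758 and 3543 on high salt. Among Ccl2-/- rats the values were 2915, 2887, 2653, 2998 and 2813 with low salt and 2872, 3181, 3355, 3695 and 3402 with high salt. The genotypes did not overlap on low salt and did on high salt. The interaction was -0.76 ± 0.13 (limma adjusted p = 0.00476), with a difference of 0.51 ± 0.09 on low salt (adjusted p = 0.0210) and -0.25 ± 0.09 on high salt (adjusted p = 0.0858). On low salt the call was kept in 16 of the 20 fits without 1 rat for Axl.

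Loxl1, an enzyme that crosslinks elastin, had 1403, 1100.1, 1168, 1449.6 and 1645 normalized counts in SS rats on low salt and 2549, 4364, 2426, 2461 and 3426 on high salt. Ccl2-/- rats had 2712, 2332, 2195, 1650.3 and 2074 on low salt and 1985, 2539, 2417, 2865 and 2182 on high salt. As with Axl, the genotypes separated on low salt only, and the low-salt call was kept in 10 of 20 such fits, while the interaction was -1.01 ± 0.22 (limma adjusted p = 0.0188). Of 42 extracellular matrix genes 6 (14.3%, against 1.76% of all genes tested) were in the lower set (Loxl1, Col3a1, Col15a1, Tnc, Timp1 and Lgals3), with a list median of -0.32. Tnc, the matricellular tenascin C, showed the other pattern, with a difference of -0.061 ± 0.31 on low salt and -2.18 ± 0.31 on high salt and an interaction of -2.11 ± 0.44 (adjusted p = 0.0165).

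The higher set held several tubule transporters that fell with salt in SS rats. Of 25 proximal tubule markers 4 were in the higher set (Kap, Slc7a13, Slc3a1 and Slc6a18) and 0 in the lower, and 24 had a positive interaction, with a median of 0.41 (0.15 under scaling to the library total). Of 14 loop of Henle and distal tubule markers 5 were higher (Slc12a1, Kcnj1, Cldn10, Cldn16 and Egf) and 2 lower (Trpv5 and Calb1), with a median of 0.02 (-0.25 under that scaling). Of 14 collecting duct markers 1 was higher (Aqp3). In the 20 fits without 1 rat, Aqp3 kept its call in 4, Slc3a1 in 3, Slc6a18 in 9 and Egf in 10. The counts of higher genes were then 2 to 7 proximal, 3 to 5 loop and distal and 0 to 1 collecting duct markers, and 1 to 2 loop and distal markers were lower. Over all genes tested, 0.774% were in the higher set. As shares of the signal outside mitochondrially encoded genes, the proximal tubule markers took 2.90 to 3.61% in SS rats on low salt, 2.52 to 3.21% in SS rats on high salt, 2.50 to 3.27% in Ccl2-/- rats on low salt and 2.88 to 3.35% in those on high salt. The loop and distal markers took 1.05 to 1.49% in SS rats on low salt, 0.560 to 0.806% in SS rats on high salt, 0.794 to 1.40% in Ccl2-/- rats on low salt and 0.775 to 0.867% in those on high salt.

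Tmem207, a membrane protein of the kidney tubule, had the smallest p in the higher set. SS rats had 604, 495, 345, 394 and 385 normalized counts on low salt and 156, 208, 179, 227 and 128 on high salt. On low salt Ccl2-/- rats had 349, 383, 488, 288 and 358, and on high salt 418, 377, 391, 327 and 393. SS rats on high salt were below all the others, and the interaction was 1.35 ± 0.23 (limma adjusted p = 0.00476).

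Slc12a1, the Na-K-2Cl cotransporter NKCC2 of the thick ascending limb, had 34154, 31914, 23235, 28297 and 26864 normalized counts in SS rats on low salt and 16293, 18954, 15224, 14599 and 10551 on high salt. The counts of Ccl2-/- rats were 21846, 22869.5, 30977, 15527 and 21202 on low salt and 21187, 21935, 20917, 23198 and 21477 on high salt. The 2 SS groups did not overlap, whereas the Ccl2-/- high-salt rats lay within the range of the Ccl2-/- low-salt rats. The interaction was 0.93 ± 0.21 (limma adjusted p = 0.0235). Kcnj1, the potassium channel ROMK that works with it, had 0.57 ± 0.12 (adjusted p = 0.0197).

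Cldn10, a tight junction protein of the same segment, had 5259, 4642, 5034, 4525 and 5133 normalized counts in SS rats on low salt and 2495, 2795, 2755, 2723 and 2925 on high salt. In Ccl2-/- rats it stood at 4002, 3807, 4101, 2976 and 3638 on low salt and 3167, 3002, 3005, 3199 and 3063 on high salt. Here the genotypes separated on both diets in opposite directions, Ccl2-/- rats being below SS rats on low salt and above them on high salt. The interaction was 0.59 ± 0.11 (limma adjusted p = 0.00811), and the difference between genotypes passed on low salt (-0.42 ± 0.08, adjusted p = 0.0220) and not on high salt (0.17 ± 0.08, adjusted p = 0.146). The low-salt call was kept in 16 of the 20 fits without 1 rat.

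Slc7a13, a cystine and acidic amino acid transporter of the proximal straight tubule, had 30023, 23405, 22376, 38086 and 29766 normalized counts in SS rats on low salt and 10835, 13655, 7851, 12481 and 5162 on high salt. Among Ccl2-/- rats the values were 22488, 23023, 31181, 8644 and 14772 with low salt and 18341, 20211, 17122, 23079.5 and 18885 with high salt. Rat 4 of the Ccl2-/- low-salt group was as low as the SS high-salt rats, and the SS groups did not overlap. The interaction was 1.66 ± 0.38 (limma adjusted p = 0.0229).

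Slco1a1, an organic anion transporter, had 1877, 1968, 1496, 2932 and 2347 normalized counts in SS rats on low salt and 644, 887, 951, 1399.8 and 480.5 on high salt. Ccl2-/- rats had 2126, 1995, 2487, 695 and 1472 on low salt and 2618, 2417, 2146, 2931 and 2348 on high salt. SS rats on high salt were below all Ccl2-/- rats on that diet, and rat 4 was again the lowest of the Ccl2-/- low-salt group. The interaction was 1.96 ± 0.39 (limma adjusted p = 0.0126), with the reservation that Slco1a1 has close copies in the rat genome.

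A smaller group rose with salt in Ccl2-/- rats. Slc9a3, the sodium-proton exchanger NHE3 of the proximal tubule, had 1804, 2583, 1859, 2070.0 and 2508 normalized counts in SS rats on low salt and 1377, 1687, 1434, 1969 and 1779.6 on high salt. On low salt Ccl2-/- rats had 1759, 1769, 2328, 1360.3 and 1924, and on high salt 2255, 2759, 2999.7, 3111 and 2719. The genotypes overlapped on low salt, and on high salt every Ccl2-/- rat was above every SS rat. Salt lowered it in SS (-0.39 ± 0.13, adjusted p = 0.0449) and raised it in Ccl2-/- rats (0.61 ± 0.13, adjusted p = 0.0114), and the interaction was 1.00 ± 0.19 (limma adjusted p = 0.00838).

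Cyp2c11, a male-specific P450 of rat liver that also oxidises arachidonic acid, had 221, 239.7, 236, 212 and 131 normalized counts in SS rats on low salt and 54.8, 147, 99.3, 306 and 62.8 on high salt. The counts of Ccl2-/- rats were 379.7, 188, 465, 108 and 200.0 on low salt and 757, 728, 478, 719 and 771 on high salt. Every Ccl2-/- rat on high salt was above every other rat. The interaction was 2.42 ± 0.53 (limma adjusted p = 0.0198), the largest positive one among the named genes, though Cyp2c genes are a family of close copies. Nat8, an acetyltransferase of the proximal tubule, had 1.04 ± 0.20 (adjusted p = 0.00929).

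**Figure D4:**
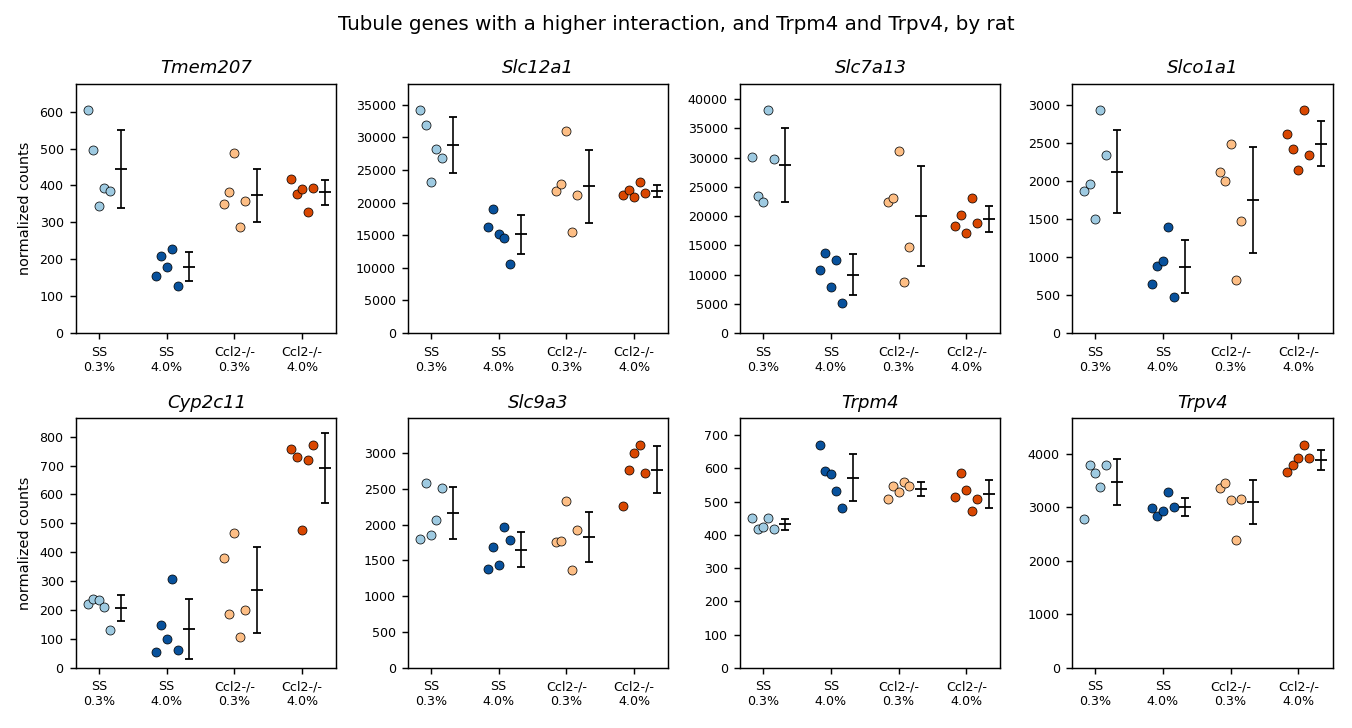
Normalized counts (vertical axes, from 0) of 6 genes of the higher set and of the channels Trpm4 and Trpv4 in each rat (points). Rats are grouped by genotype and dietary NaCl, with the mean and SD of each group of 5 rats beside the points. Tmem207, Slc12a1, Slc7a13 and Slco1a1 are lowest in SS rats on 4.0% NaCl, and Cyp2c11 and Slc9a3 are highest in Ccl2-/- rats on 4.0% NaCl.

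Genes of smooth muscle contraction showed no interaction past the threshold. Of 17 tested markers 0 passed by limma, edgeR or DESeq2. At an unadjusted p under 0.05, 3 were lower, against 2906 of all 16153 genes tested in either direction. The median of the 17 markers was -0.10, with a range of -0.46 to 0.30. The tropomyosins Tpm2 and Tpm1, among the members with the smallest p, had -0.46 ± 0.18 and -0.30 ± 0.14 (limma adjusted p = 0.186 and 0.269), and both turned positive, at 0.22 and 0.044, with the tubule score as a covariate. The list median was -0.36 under scaling to the library total.

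Of 48 myogenic ion channel and signalling genes 2 were lower (Cacnb3 and Trpm4) and 1 higher (Trpv4), which is 4.17 and 2.08% of the list against 1.76 and 0.774% of all genes tested. When 1 rat was left out, 1 to 2 were lower and 0 to 1 higher. Cacnb3, a beta subunit of voltage-gated calcium channels, had 193, 221, 298, 282 and 282 normalized counts in SS rats on low salt and 425, 458, 461, 281 and 379 on high salt. In Ccl2-/- rats it stood at 313, 326, 304, 362 and 361 on low salt and 260.1, 325, 301, 244 and 218 on high salt. Each SS low-salt rat was below each Ccl2-/- low-salt rat, and the diets overlapped in both genotypes. The interaction was -0.96 ± 0.20 (limma adjusted p = 0.0169).

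Trpm4, a calcium-activated cation channel that depolarises smooth muscle, had 449.7, 419, 424, 449 and 418 normalized counts in SS rats on low salt and 670.2, 592, 583, 533 and 482 on high salt. Among Ccl2-/- rats the values were 508, 548, 528, 558 and 548 with low salt and 514, 585, 535, 471 and 507 with high salt. SS rats on low salt were below all the others. The interaction was -0.44 ± 0.12 (limma adjusted p = 0.0481) and kept its call in 3 of the 20 fits that left out 1 rat, with adjusted p up to 0.0971.

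Trpv4, a cation channel opened by stretch and swelling in vessels and tubules, had 2783, 3799, 3654, 3376 and 3797 normalized counts in SS rats on low salt and 2988, 2836, 2939, 3289 and 3006 on high salt. Ccl2-/- rats had 3364, 3458, 3139.9, 2398 and 3163 on low salt and 3658, 3788, 3935, 4168 and 3922 on high salt. Ccl2-/- rats on high salt were above Ccl2-/- rats on low salt and above SS rats on high salt. The interaction was 0.54 ± 0.13 (limma adjusted p = 0.0303) and kept its call in 14 of the 20 fits that left out 1 rat, with adjusted p up to 0.0628. With the tubule score as a covariate the Trpv4 interaction was 0.14 ± 0.15. In that fit Cacnb3 had -0.75 ± 0.30 and Trpm4 -0.27 ± 0.17, and none of the 3 passed.

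Adra1d, an alpha-1 adrenergic receptor of arterial smooth muscle, had 293, 454, 423, 331 and 301 normalized counts in SS rats on low salt and 1370.1, 727, 754, 390.3 and 306 on high salt. On low salt Ccl2-/- rats had 472, 351, 308, 332 and 373, and on high salt 211, 129, 169.7, 220.4 and 191. All Ccl2-/- rats on high salt were below every other rat, and the 2 SS groups overlapped. The interaction was -1.80 ± 0.38 (limma adjusted p = 0.0166). It was 1 of 2 called among 34 vasoactive receptors (2.94% in each direction), the other being the alpha-2 receptor Adra2b at 0.59 ± 0.15 (adjusted p = 0.0375), which kept its call in 8 of the 20 fits that left out 1 rat.

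Some metabolic and stress lists had a median away from that of all genes but no member past the threshold by limma. The 32 fatty acid oxidation genes had a median of 0.32 (0.06 under scaling to the library total), the 11 heat shock genes 0.55 (0.28) and the 13 mitochondrially encoded genes 0.98 (0.71). At an unadjusted p under 0.05, 7, 7 and 1 of them were higher, against 2906 of all 16153 genes tested in either direction. By edgeR 0 were called in each list, against 114 higher and 325 lower over all genes tested. DESeq2 called 2 heat shock genes and 0 in the other lists, against 294 higher and 541 lower over all genes tested. For fatty acid oxidation, Cyp4a1, a fatty acid hydroxylase with close copies, had 0.92 ± 0.35 (limma adjusted p = 0.164). The chaperone Hsph1 had 0.90 ± 0.28 (adjusted p = 0.0894). The 27 cell cycle genes had a median of -0.29, with 5 lower at an unadjusted p under 0.05 and 1 called by edgeR and by DESeq2, and with the replication helicase subunits Mcm3 and Mcm5 at -0.91 ± 0.26 and -0.71 ± 0.33 (adjusted p = 0.0585 and 0.253).

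Other lists held a few members of either set. Of 22 amino acid transporters 4 were higher (Slc7a12, Slc7a13, Slc3a1 and Slc6a18), with Slc7a12 at 1.81 ± 0.40 (limma adjusted p = 0.0206). Of 21 nitric oxide, prostanoid and 20-HETE genes 3 were higher (Cyp2c11, Cyp4a8 and Pde1a), and Pde1a, a calmodulin-dependent phosphodiesterase, had 0.63 ± 0.14 (adjusted p = 0.0206). The higher members are 18.2% of the amino acid list and 14.3% of the nitric oxide list, against 0.774% of all genes tested. Without 1 rat the amino acid transporters called were 2 to 4. Of 22 interferon response genes 2 were lower (Psmb9 and Tap1), of 27 TNF superfamily genes 1 (Ltb), and of 20 immediate early genes 1 (Egr2). These are 9.09, 3.7 and 5% of the lists against 1.76% of all genes tested, and each count reached 0 when 1 rat was left out. Psmb9 kept its call in 17 of those 20 fits, Tap1 in 4, and Ltb and Egr2 in 12 each. Of 11 peripheral nerve markers 2 (18.2%) were lower (Uchl1 and Tubb3), and Tubb3 kept its call in 7 of the 20. Uchl1, a ubiquitin hydrolase of neurons, had -1.67 ± 0.33 (adjusted p = 0.0114).

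**Figure D5:**
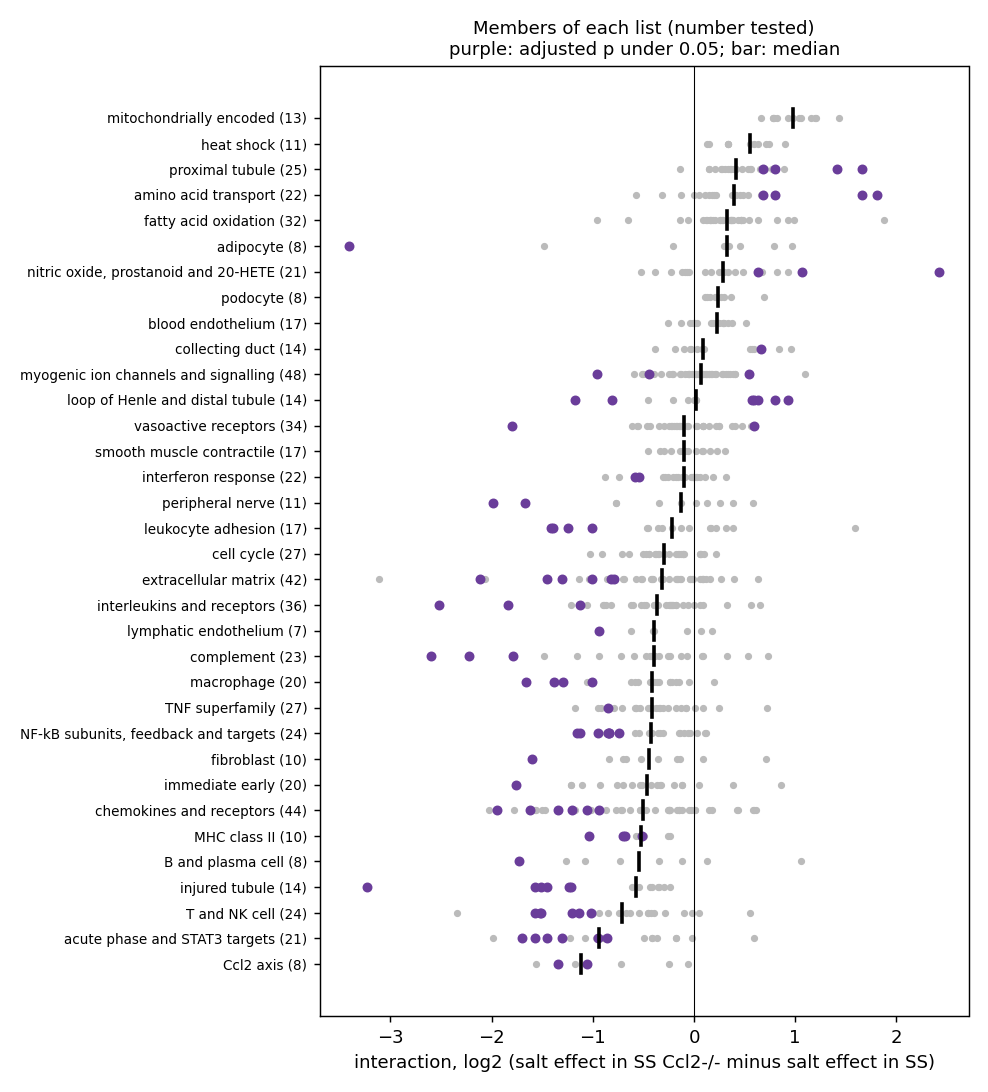
Interaction (horizontal axis, log2) of each tested member (points) of the lists with at least 5 members tested, with the median of the list (black bar) and members past adjusted p of 0.05 in purple. Ccl2 axis (-1.12), acute phase and STAT3 targets (-0.94) and T and NK cell markers (-0.71) have the lowest medians, and mitochondrially encoded genes (0.98) and heat shock genes (0.55) the highest.

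The mean level of tubule marker transcripts differed between the groups in the same pattern as the interaction. The tubule score, which averages the log2 levels of all markers of proximal, loop, distal and collecting duct segments, was 13.02 ± 0.08 for SS rats given low salt and 12.70 ± 0.03 for those given high salt (SD, n = 5). It was 12.89 ± 0.15 and 12.91 ± 0.05 in Ccl2-/- rats, an interaction of 0.35. The score holds 4 proximal, 7 loop and distal and 1 collecting duct members of the called genes. With this score as a covariate 0 genes passed (limma, 1143 at an unadjusted p under 0.05, lowest adjusted p = 0.358), against 409 (2906 unadjusted) without it. All 284 and all 125 genes kept their sign in that fit. The median interaction went from -1.07 to -0.81 in the lower set and from 0.80 to 0.41 in the higher set, and the median SE grew from 0.24 to 0.35 and from 0.19 to 0.25. Whether the tubule content has a part in the interaction cannot be told apart from the groups by this fit.

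Mitochondrially encoded transcripts also followed diet and genotype, at 30.2% ± 8.06 and 13.3% ± 5.98 of the signal in SS rats on low and high salt and 20.5% ± 5.76 and 13.3% ± 2.83 in Ccl2-/- rats (SD, n = 5). With their share as a covariate 242 genes passed, 156 of them lower. Scaled to the library total, 1082 genes passed, 29 higher and 1053 lower, and the median of all genes moved to -0.27, so that 97.3% of calls were lower in place of 69.4%. When mitochondrially encoded genes were left out of that total, the median was -0.08 and 85.1% of calls were lower. The number called was 238 without rat 2 of the SS high-salt group, 260 and 221 without rats 4 and 5 of the Ccl2-/- low-salt group, and 224, 237 and 267 without rats 1, 4 and 5 of the Ccl2-/- high-salt group. Of the 93 called genes chosen for naming, 64 kept their call in each of the 20 fits that left out 1 rat, and none changed sign in any setting run. Of the genes given with values above, Slc12a1, Kcnj1, Cldn10, Pde1a, Trpv4 and Adra2b missed the threshold under scaling to the library total, and Ccl21, RT1-Db1, Nfkbiz, Pde1a, Cd3d, Trpm4 and Trpv4 missed it with the mitochondrial share as a covariate.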

How the data were processed

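Small vessels dissected from kidneys of 20 rats, 5 in each of 4 groups, were sequenced as poly A RNA, per the labels' protocols. The authors used Trim Galore, STAR 2.7.11b, featureCounts 2.0.6 and DESeq2 1.44 on build mRatBN7.2, per the submitters' processing notes, which name no settings here. What the authors deposited is normalized counts, a signal made by dividing each library's read counts by its own factor. Whole reads were recovered for 100% of values within 1e-06. Depth was 22.0 to 47.9 M reads, and of the genes in the table each had at least 100 reads in all. How the strand was handled is not stated, so antisense partners cannot be told apart.

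Under R 4.3.3, limma 3.58.1 fitted 4 group means per gene to log2(signal + 1) of all 20 libraries, with a spread moderated along a mean trend. The scale understates changes of rare transcripts. P-values were adjusted over all 16153 genes by Benjamini and Hochberg and called under 0.05. Adjusted p-values in the text are limma's. Errors after ± are SEs for log2 values and SDs for levels. Labels name separate rats, and nothing ties a rat number to a litter or day.

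The comparison, the 38 gene lists and the naming rule were chosen with earlier results of these data known. Named were Ccl2 and Ccr2, the 15 genes of smallest p and the 6 of largest size in each direction (mean of at least 50), and up to 5 members per list. Members outside the rule that are only counted are named without values. Some genes the rule picks are not reported here. Recovered reads were also tested with edgeR 4.0.16 and DESeq2 1.42.0. Other settings were pseudocounts of 0.5 and 8, filters of 0 and 100, other scalings, library weights, covariates, a rat block and leaving out rats. Scaling without mitochondrially encoded genes was chosen after seeing the data. The test was tried on simulated data. Promoters came from RefSeq (GRCr8), matched by symbol with Python 3.11.15.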

Additional observations from a re-analysis of the deposited data

Results flagged for a closer look

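The salt effect differed between genotypes by a test of the interaction in 409 genes, which are those described above. Within groups of 5 rats, 1 library stood apart from the other 4 in 5 of 100 groups examined (25 genes, 4 groups each). Chance gives about 5% of such groups. These were Ccr2 in rat 2 of the SS high-salt group (520.3 normalized counts), Timp1 and Selp in rat 1 of the Ccl2-/- low-salt group (809.6 and 69.4), and Cyp2c11 in rat 5 of the SS low-salt group (131) and in rat 3 of the Ccl2-/- high-salt group (478).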

How the results depend on the processing

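The 409 interaction calls (125 higher, 284 lower) stayed within 1.5 times under both pseudocounts, no filter and a filter of 100, quantile normalization (382), library weights (519) and edgeR (439). The replicate block by rat number gave 275 calls, 64 of them higher. Rats of the same number showed no common deviation on average (mean r from -0.043 to 0.056). Of 20 libraries, 2 correlated best with their own number. Such correlations cannot exclude a pairing by litter or day, which the labels do not give. Scaling to the library total gave 1082 (29 higher, 1053 lower), with 8929 genes for salt in SS, 4059 for genotype on low salt and 592 on high salt. The tubule score as a covariate gave 0 in both directions, with 185 for salt in SS, 0 for genotype on low salt and 290 on high salt. It also turned Tpm2 (0.22) and Tpm1 (0.044) positive. The mitochondrial share as a covariate gave 242 (156 lower), with 1241 for salt in SS, 1571 for salt in Ccl2-/- and 404 for genotype on low salt. DESeq2 gave 835 (294 higher, 541 lower), 1656 for salt in Ccl2-/- and 555 for genotype on low salt. Leaving out rat 1 of the SS high-salt and rat 4 of the Ccl2-/- low-salt group gave 237 (70 higher, 167 lower) and 848 for genotype on high salt. Scaling without mitochondrially encoded genes gave 74 higher calls and 368 for genotype on low salt. For genotype on low salt, quantile normalization gave 57 and library weights 487, and weights gave 2628 for salt in Ccl2-/-. Fits without 1 rat gave 221 to 612 interaction calls (52 to 222 higher, 157 to 390 lower), 2177 to 3204 for salt in SS, 419 to 1611 for salt in Ccl2-/-, 0 to 398 for genotype on low salt and 610 to 1796 on high salt. The cause of these shifts was not tested. The 93 called genes chosen for naming kept their sign in every setting. No setting varied the depth.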
